A study of Mus musculus with 9 samples.

Results

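The integrin chains of leukocytes were followed in the blood transcriptome of arthritic mice. The 10 genes Itgal, Itgam, Itgax, Itgb2, Itga4, Itgb1, Itgb7, Itga6, Itgae and Itgav were picked by symbol, and all 10 were found among the 20926 genes of the deposited table. RNA was sequenced from the blood of male DBA/1 mice, with 3 libraries in each of 3 groups. The labels give an age of 7 weeks. By the design this was the age at grouping, before immunisation and irradiation, so the mice were older when blood was taken. The Ctrl group had no arthritis induced and was not irradiated, and it is not stated whether it was given sham injections. The CIA group had collagen-induced arthritis, a model in which injection of collagen with adjuvant sets off an autoimmune joint disease, and was not irradiated. The CIA+THz group had the same arthritis, and on 14 days its swollen ankles received 0.1 THz radiation, 30 min each day, under isoflurane anaesthesia. The sources used here do not say whether the other groups were anaesthetised, so irradiation and anaesthesia cannot be told apart. They also do not say whether a library was 1 mouse or a pool, and the p-values measure the spread between these libraries.

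Integrins are receptors made of an alpha and a beta chain that hold leukocytes to vessel walls, to other cells and to the matrix. The beta2 chain pairs with the alpha chains of Itgal (as LFA-1), Itgam (as Mac-1) and Itgax, which mark most leukocytes, neutrophils with monocytes, and dendritic cells with some monocytes, and all of these bind ICAM proteins on activated endothelium. The alpha4 chain of Itga4 pairs with beta1 to bind VCAM-1 and fibronectin, or with beta7 to bind MAdCAM-1 of gut vessels, and the beta7 chain can instead join the alphaE chain of Itgae, which binds E-cadherin. The alpha6 and alphaV chains bind laminins and RGD-type matrix proteins, and alpha6beta1 is also a receptor of platelets.

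In GENCODE on GRCm38, the build that the submitters' processing notes call mm10, 3 of the 4 beta2-family genes lie on the forward strand of chromosome 7. These are Itgal (127296260 to 127335138), Itgam (128062640 to 128118491) and Itgax (128129547 to 128150657). Only 11.1 kb separates Itgam from Itgax, and the related chain Itgad begins 3.7 kb beyond Itgax. Itgb2 is on chromosome 10 (77530252 to 77565708). Itga6 (71745616 to 71858416), Itga4 (79255426 to 79333123) and Itgav (83724397 to 83806916) are all on chromosome 2, Itgb1 is on chromosome 8 (128685654 to 128733200), Itgae on chromosome 11 (73090583 to 73147446) and Itgb7 on chromosome 15 (102215995 to 102231944, reverse strand). Exons of Itga4 overlap Cerkl on the opposite strand, which was between 0 and 0.633 FPKM. Exons of Itgam overlap the predicted gene Gm49368 on the same strand, and those of Itgav overlap Gm13684 on the opposite strand. The table lists neither predicted gene. The counting is not stated to use strand, and strand could not separate Itgam from Gm49368. The levels of these 3 chains may therefore include reads of their neighbours.

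Promoters are shown for the neighbours Itgam and Itgax, which lie side by side and share a beta chain, and for Itgb7, the chain with the smallest p across the groups. The bases directly upstream of the RefSeq start were taken from GRCm38.p6, leaving out any base in a GENCODE exon of the same gene. Capitals mark GAGGAA on either strand, the core of PU.1-type ETS sites, in the sequences of Itgam (chr7:128062520-128062639, + strand), Itgax (chr7:128129430-128129546, + strand) and Itgb7 (chr15:102231945-102232055, - strand).
Itgam: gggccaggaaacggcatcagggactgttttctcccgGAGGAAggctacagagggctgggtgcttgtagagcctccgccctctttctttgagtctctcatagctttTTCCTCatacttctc
Itgax: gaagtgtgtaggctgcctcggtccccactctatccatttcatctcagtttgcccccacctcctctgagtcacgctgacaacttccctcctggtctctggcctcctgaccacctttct
Itgb7: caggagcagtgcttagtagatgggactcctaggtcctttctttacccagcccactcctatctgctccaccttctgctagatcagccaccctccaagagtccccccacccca
Itgam held 2 matches in these bases, and Itgax and Itgb7 held 0. The RefSeq promoter table matched 6 members, without Itgal, Itgb2, Itga6 and Itgae. In the 250 bases before the start, 3 of these 6 held the motif (2 matches in Itgam, 2 in Itgav and 1 in Itgb1), against 23.3% of the 32851 promoters of the table (7639 promoters). A match is a description of the letters and not a bound site.

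The unit throughout is FPKM (fragments scaled by transcript length and library total), divided by 1 median-of-ratios factor per library. The factors were between 0.847 and 1.24 and were highest in the CIA+THz libraries. FPKM hold no read counts, and low values were not whole multiples of a unit, so the depth of a library is unknown and no counting interval can be given. Although the labels call the samples blood leukocytes, RNA came from total blood. The summed level of 6 red cell markers was between 47500 and 104000 FPKM, against 4740 to 5810 for 8 pan-leukocyte markers. Single genes made up most of both sums, Alas2 at 47200 to 103000 FPKM and Lcp1 at 3190 to 3880. The next highest red cell marker, Slc4a1, was at 170 to 491 FPKM. In a mixture such as total blood, fewer cells of a type and less RNA per cell cannot be told apart.

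Among the leukocyte integrins, Itgb1 was by far the most abundant chain, with a mean of 462 FPKM over the 9 libraries. Itgb2 followed with 136 FPKM. Next came a close set of 4 chains, with means of 95.7 FPKM for Itga6, 85.9 for Itgb7, 83.3 for Itgam and 76.7 for Itgal. Itga4 averaged 44.8 FPKM and Itgax 16.2 FPKM. Itgav at 5.0 FPKM and Itgae at 1.01 FPKM were low, the former near the middle of all tested genes (percentile 50.2) and the latter at percentile 21.4. Itgal varied least between libraries, with a highest value 1.24 times the lowest, and Itgae most, with 2.68 times.

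The order of the chains was the same in the 3 groups but for Itgb7 and the chains it passed. Itgb7 ranked 6 of 10 in the Ctrl group, 4 in the CIA group and 3 in the CIA+THz group, where it stood above Itga6, Itgam and Itgal. Its neighbours in this order did not all differ beyond their spread. In Ctrl the ranges of Itgal and Itgb7 overlapped, and in CIA those of Itga6 and Itgb7, of Itgb7 and Itgam, and of Itgam and Itgal. In CIA+THz, the ranges of Itga6 and Itgam and of Itgam and Itgal overlapped, while Itgb7 stood clear of its neighbours. The other adjacent chains did not overlap in any group.

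**Figure D1:**
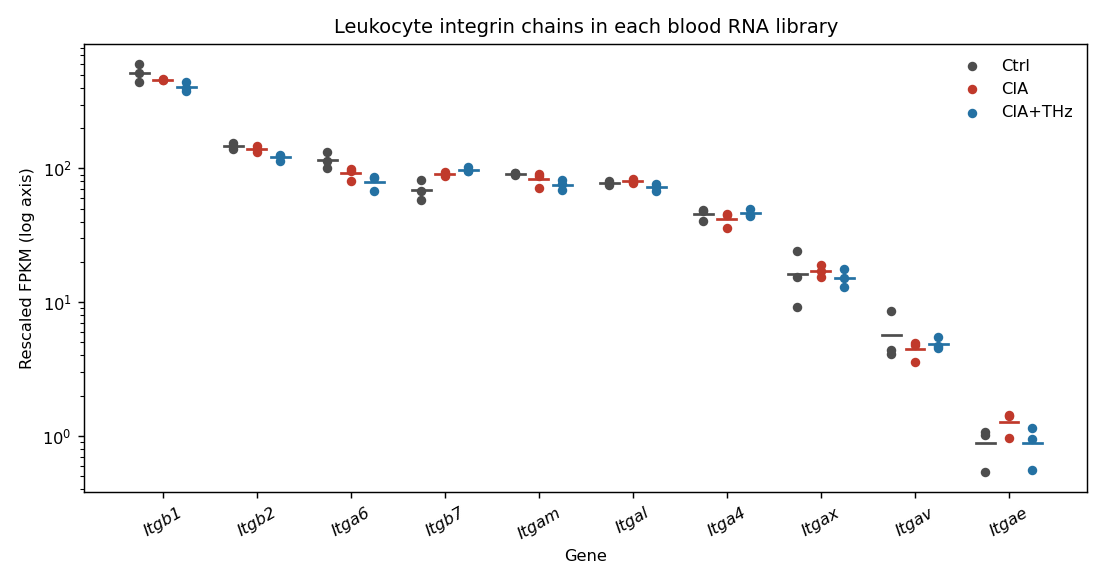
Level of the 10 integrin chains in each library, as rescaled FPKM on a log axis, with 1 point per library, a line at the group mean, and genes ordered by mean level. Itgb1 is highest and Itgae lowest in every group, and the points of Itgb7 are lowest in Ctrl while those of Itga6 are highest there.

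Of the beta2 family, Itgb2, the shared beta chain, was at 146, 155 and 139 FPKM in the 3 Ctrl libraries, at 133, 147 and 140 in CIA, and at 123, 114 and 125 in CIA+THz. All CIA+THz values lay under all others, and Ctrl and CIA overlapped, but with FPKM as deposited the CIA+THz values (130 to 152) overlapped both groups. Itgal, the LFA-1 alpha chain of most leukocytes, was at 77.1, 74.8 and 80.3 FPKM in Ctrl, at 77.7, 83.9 and 79.1 in CIA, and at 76.8, 67.7 and 73.1 in CIA+THz. The CIA+THz values lay under the CIA values (not so with FPKM as deposited, at 77.4 to 95.2 against 70.6 to 81.3) but overlapped Ctrl. Itgam, the Mac-1 alpha chain of neutrophils and monocytes, was at 92.8, 89.3 and 92.0 FPKM in Ctrl, at 70.9, 87.2 and 90.9 in CIA, and at 75.8, 69.0 and 81.7 in CIA+THz. CIA replicate 1 stood well under the other CIA libraries, and CIA+THz lay under Ctrl without overlap, though within its range with FPKM as deposited. Itgax, the CD11c chain, was at 15.4, 9.20 and 24.0 FPKM in Ctrl, at 15.4, 17.1 and 19.1 in CIA, and at 15.2, 12.9 and 17.7 in CIA+THz. The highest and the lowest Itgax value of all 9 libraries were both in Ctrl, so that its groups overlapped throughout.

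The beta7 chain gave the clearest pattern of the lymphocyte-type integrins. Itgb7 was at 57.6, 67.4 and 82.2 FPKM in Ctrl, at 88.4, 93.5 and 90.4 in CIA, and at 102, 95.6 and 96.0 in CIA+THz. No library of one group overlapped another, and Ctrl replicate 3 came nearest to CIA. With FPKM as deposited this library, at 86.9, fell within the CIA range of 80.4 to 90.6, and CIA+THz still lay above all others. Its partner Itga4 was at 48.1, 40.2 and 48.9 FPKM in Ctrl, at 45.5, 36.0 and 45.1 in CIA, and at 45.2, 44.4 and 49.7 in CIA+THz, with overlap between all groups. Itgb1, the alternative partner of alpha4 and the common beta chain of matrix receptors, was at 515, 599 and 445 FPKM in Ctrl, at 456, 466 and 459 in CIA, and at 378, 402 and 441 in CIA+THz. The CIA+THz values of Itgb1 lay under both other groups, which overlapped each other, but with FPKM as deposited they (459 to 484) lay above the CIA values and overlapped those of Ctrl. Itgae, the other partner of beta7 and a marker of mucosal T cells and some dendritic cells, was at 1.08, 0.537 and 1.02 FPKM in Ctrl, at 1.44, 1.40 and 0.974 in CIA, and at 0.944, 1.15 and 0.553 in CIA+THz. Its groups overlapped.

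Itga6, a laminin receptor chain of platelets and lymphocytes, was at 114, 132 and 101 FPKM in Ctrl, at 99.1, 96.0 and 80.3 in CIA, and at 68.1, 85.0 and 85.5 in CIA+THz. Ctrl lay above both other groups, with rescaled and with deposited FPKM, and these overlapped. Itgav, which pairs with several beta chains to bind vitronectin and fibronectin, was at 8.52, 4.11 and 4.40 FPKM in Ctrl, at 3.58, 4.96 and 4.76 in CIA, and at 4.54, 5.45 and 4.67 in CIA+THz. Apart from Ctrl replicate 1, the highest, all Itgav values lay within a narrow band in which the groups overlapped.

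The comparison of CIA with Ctrl asks which chains differ in arthritis. No member passed the study's criterion of an unadjusted p under 0.05 with an absolute log2 fold change above 0.67, which 9.04% of the 12366 genes tested passed by limma. Itgb7, the beta chain of the gut-homing receptor, was 0.41 higher in CIA on the log2 scale (SE 0.14, 95% interval 0.07 to 0.75, adjusted p = 0.225 by limma), and it alone of the 10 had an unadjusted p under 0.05, against 17.3% of all genes. With an adjusted p under 0.05 there were 0 members and 0.154% of all genes (19 genes). Itga6 was 0.33 lower, at -0.33 (SE 0.14, 95% interval -0.66 to 0, adjusted p = 0.294 by limma). Both had groups that did not overlap, as 2 of 10 members did and 23.5% of all genes. The other 8 members overlapped, with log2 differences between -0.28 for Itgav and 0.52 for Itgae, and 6 of the 10 were lower in CIA. The median log2 difference was -0.09 over the members and -0.01 over all genes. The count of 1 member with an unadjusted p under 0.05 was 0 when Ctrl replicate 1, Ctrl replicate 2 or any CIA library was left out, and 2 without Ctrl replicate 3. It was also 0 with no trend on the mean level. With FPKM as deposited Itga6 alone had such a p, and Itgb7, at 0.44, did not. On the pan-leukocyte markers Itga6 and Itgb1 had it, and Itgb7, at 0.30, did not.

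The comparison of CIA+THz with CIA asks which chains differ with irradiation of arthritic mice. Again no member passed the criterion, which 4.54% of all genes passed. The 4 members whose groups did not overlap (against 19.6% of all genes) were Itgb2, Itgal and Itgb1, lower in CIA+THz, and Itgb7, higher, but the 3 lower chains were higher with FPKM as deposited. The log2 difference of Itgb2 was -0.22 (SE 0.08, 95% interval -0.42 to -0.02, adjusted p = 0.344 by limma), and 0.06 with FPKM as deposited. It was the only member with an unadjusted p under 0.05, as 13.2% of all genes had, and 0 members and 0% of genes had an adjusted p under 0.05. The differences were -0.15 (SE 0.09) for Itgal and -0.18 (SE 0.09) for Itgb1, or 0.13 and 0.10 with FPKM as deposited. Itgb7 differed by 0.11 (SE 0.08) on the log2 scale, with an adjusted p = 0.583 by limma. In all, 7 members were lower and 3 higher, with a median of -0.16 against 0.03 over all genes. With FPKM as deposited, 9 of 10 were higher, with a median of 0.11 against 0.29.

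These directions depend on the scaling because the deposited FPKM of most genes were higher in the CIA+THz libraries. Relative to the rescaled values, FPKM as deposited shifted CIA+THz against CIA by 0.278 and CIA+THz against Ctrl by 0.307 on the log2 scale for all genes alike, and CIA against Ctrl by 0.03. Scaling on the pan-leukocyte markers shifted CIA against Ctrl by -0.108 and kept Itgb2, Itgal and Itgb1 lower in CIA+THz than in CIA, at -0.14, -0.07 and -0.10. In rescaled FPKM, 6 of the 8 pan-leukocyte markers were themselves higher in CIA than in Ctrl (0 past the criterion). Between CIA+THz and CIA, 7 of 8 were lower, and Ptprc was higher and past the criterion. Itgb7 was higher in CIA+THz than in CIA under each scaling, by 0.38 with FPKM as deposited and by 0.19 on the pan-leukocyte markers. Without the CIA replicate 2 or 3, or the CIA+THz replicate 1 or 2, 0 members had an unadjusted p under 0.05 between CIA+THz and CIA. The count was also 0 with upper-quartile or pan-leukocyte scaling, a mean of at least 1, no trend, all 9 libraries in the fit or the replicate block. With FPKM as deposited it was 2.

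CIA+THz against Ctrl, which spans both arthritis and irradiation and shares its libraries with the other comparisons, held the largest differences of Itgb7 and Itga6. Itgb7 was 0.52 higher on the log2 scale (SE 0.14, 95% interval 0.19 to 0.84, adjusted p = 0.142 by limma), a larger absolute change than in 71.1% of the genes tested. Itga6 was lower, at -0.54 (SE 0.14, 95% interval -0.87 to -0.21, adjusted p = 0.137 by limma), larger than in 72.7%. These kept their direction with FPKM as deposited, at 0.82 for Itgb7, then past the criterion, and at -0.23 for Itga6. Itgb1 at -0.34 (SE 0.14), Itgb2 at -0.28 (SE 0.09) and Itgam at -0.28 (SE 0.10) were lower as well, with adjusted p of 0.253, 0.187 and 0.206, though Itgb1 was at -0.04, Itgb2 at 0.02 and Itgam at 0.03 with FPKM as deposited.

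So 5 of 10 members had an unadjusted p under 0.05 between CIA+THz and Ctrl, against 18.1% of all genes, and the same 5 did not overlap between the groups, against 24% of all genes. The criterion was passed by 0 members and 7.88% of genes, and an adjusted p under 0.05 was found for 0 members and 0.105% of genes (13 genes). The count of 5 was 1 with FPKM as deposited (Itgb7), 2 with no trend on the mean level (Itgb7 and Itga6), 3 without Ctrl replicate 1 and 2 without CIA+THz replicate 2. With FPKM as deposited, 2 members, Itgb7 and Itga6, had groups that did not overlap. The remaining members, Itgal, Itgax, Itga4, Itgae and Itgav, differed by between -0.14 and 0.02 on the log2 scale, with groups that overlapped. For the low chains Itgax, Itgav and Itgae the 95% intervals reached past the fold threshold in at least 1 direction, so that these libraries cannot tell such a change from none.

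**Figure D2:**
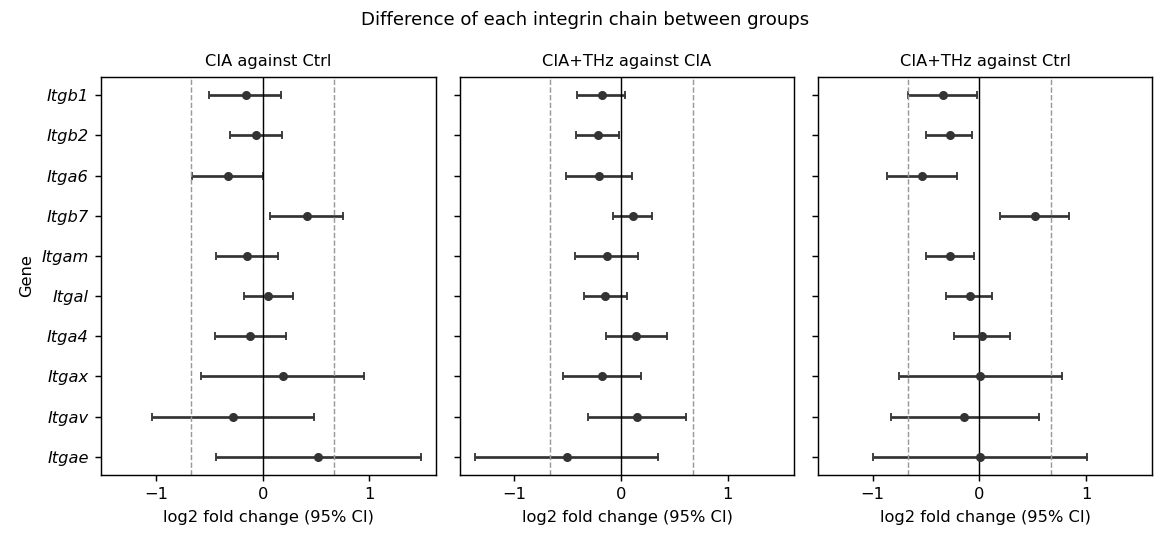
Log2 difference of each integrin chain in the 3 comparisons, with bars for the 95% interval from limma and dashed lines at the fold threshold of 0.67 in both directions. No point passes the threshold, Itgb7 lies to the right and Itga6 to the left of 0 in both comparisons with Ctrl, and 6 of the 7 chains left of 0 in CIA+THz against CIA lie to the right of it with FPKM as deposited.

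By limma's moderated F-test over all 9 libraries, 3 of the 10 members differed across the groups at an unadjusted p under 0.05, against 21.3% of all genes. They were Itgb7 (adjusted p = 0.0915), Itga6 (adjusted p = 0.120) and Itgb2 (adjusted p = 0.213 by limma). With an adjusted p under 0.05 there were 0 members, against 2.53% of all genes. A one-way analysis of variance on linear values, the kind of test the study names, also called Itgb7, Itga6 and Itgb2. Itgb2 no longer passed when Ctrl replicate 1, Ctrl replicate 2, CIA replicate 3 or any CIA+THz library was left out, which gave 2 members. Without Ctrl replicate 3 or CIA replicate 1 the count was 4, and without Ctrl replicate 3 the smallest adjusted p of a member was 0.0443. Itgb7 and Itga6 passed with each library left out in turn, and with FPKM as deposited Itgb7 alone passed.

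Ratios between chains within a library do not depend on the scaling of that library. The ratio of Itgb7 to Itgb1, the alternative beta chains of alpha4, was 0.112, 0.113 and 0.185 in Ctrl, 0.194, 0.200 and 0.197 in CIA, and 0.269, 0.238 and 0.218 in CIA+THz. No library overlapped another group, with Ctrl replicate 3 close to the CIA libraries. The log2 difference of this ratio was 0.57 (SE 0.24) for CIA against Ctrl, 0.29 (SE 0.09) for CIA+THz against CIA and 0.86 (SE 0.25) for CIA+THz against Ctrl. Each exact permutation p was 0.1, the smallest that 3 against 3 libraries can give, and 0.225 after adjustment over the 18 tests of 6 ratios in 3 comparisons, so none could pass 0.05.

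The ratio of Itga4 to Itgb2 set an alpha chain rich in lymphocytes and monocytes against the beta2 chain. It was 0.329, 0.260 and 0.353 in Ctrl, 0.341, 0.245 and 0.323 in CIA, and 0.369, 0.390 and 0.398 in CIA+THz. All CIA+THz libraries stood above all others, by 0.36 (SE 0.15) on the log2 scale against CIA and by 0.31 (SE 0.14) against Ctrl, while Ctrl and CIA overlapped. Itgal to Itgb2 was likewise highest in CIA+THz, at a mean ratio of 0.602 ± 0.0214 (SD, n = 3), against 0.572 ± 0.00851 in CIA and 0.530 ± 0.0486 in Ctrl. Itgam to Itgal had means of 1.18 ± 0.0308 in Ctrl, 1.03 ± 0.118 with CIA alone and 1.04 ± 0.0677 with CIA+THz, and it lay lower in all CIA+THz than in all Ctrl libraries. Itgam to Itgb2 and Itgax to Itgal overlapped in every comparison.

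**Figure D3:**
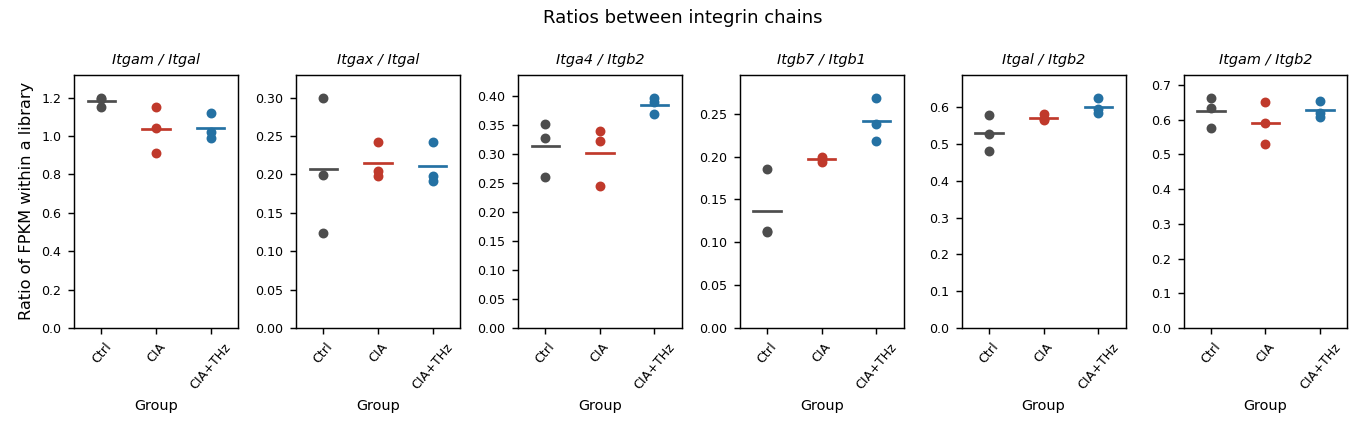
The 6 ratios between integrin chains, as the FPKM of the first gene over that of the second within a library, with 1 point per library and a line at the group mean. Itgb7 to Itgb1 stands apart in all 3 groups, from a Ctrl mean of 0.136 to 0.197 in CIA and 0.242 in CIA+THz, and Itga4 to Itgb2 is highest in the CIA+THz libraries.

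The alpha partners of beta2 kept similar shares. Of the summed FPKM of Itgal, Itgam and Itgax, Itgam took between 43.2% and 51.5%, Itgal between 40.9% and 47.4%, and Itgax between 5.31% and 12.2%. Both the lowest and the highest share of Itgax were in Ctrl. The 3 alpha chains together stood at 1.12 to 1.42 times the level of Itgb2 over the 9 libraries. These are RNA levels per length and not amounts of assembled receptor.

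Marker lists of blood cell types moved beside some of these chains. The summed level of 9 neutrophil markers was 12600 to 21300 FPKM in Ctrl, 14400 to 18700 in CIA and 10700 to 12200 in CIA+THz, which lay under the other groups as Itgb2 did, while with FPKM as deposited both overlapped (11700 to 15100 for the markers in CIA+THz, 13100 to 18100 in CIA). S100a9 alone, at 8100 to 16300 FPKM, made up most of the sum of these markers. In CIA+THz, 9 of 9 of these markers were lower than in CIA (1 past the criterion) and 8 of 9 lower than in Ctrl (4 past it). The sum of 8 platelet markers was 4220 to 5130 FPKM in Ctrl, 3930 to 4950 in CIA and 3340 to 4030 in CIA+THz, with 7 of 8 markers lower in CIA+THz than in either group and 0 past the criterion, and with FPKM as deposited the 3 groups overlapped. The platelet values stand beside Itga6 and Itgb1, which platelets also express, and in CIA, where Itga6 was lower than in Ctrl, the platelet sums overlapped those of Ctrl.

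The 8 B cell markers summed to 410 to 504 FPKM in Ctrl, 477 to 602 in CIA and 551 to 712 in CIA+THz. In CIA+THz, 8 of 8 were higher than in Ctrl (2 past the criterion), and in CIA 6 of 8 were (1 past it). Between CIA+THz and CIA, 7 of 8 were higher and 0 passed the criterion. The B cell sums of CIA overlapped both other groups, while the groups of Itgb7 did not overlap. The 10 T cell markers, which belong to the other main cells with beta7, summed to 353 to 396, 285 to 323 and 349 to 473 FPKM, with 10 of 10 lower in CIA than in Ctrl (1 past the criterion) while Itgb7 was higher. In CIA+THz against CIA, 10 of 10 were higher (2 past the criterion, Cd5 and Cd28, with a median log2 difference of 0.35), and Itgb7 was higher there too. The 9 monocyte markers summed to 584 to 632, 907 to 1020 and 722 to 779 FPKM, with 9 of 9 higher in CIA than in Ctrl (5 past the criterion), and Itgam was not higher there. With FPKM as deposited the monocyte sums of CIA (879 to 1010) and CIA+THz (825 to 941) overlapped. The 6 red cell markers summed to 69200 to 104000, 87200 to 97900 and 47500 to 65500 FPKM. Alas2 alone made up nearly all of this, at 47200 to 65100 FPKM in CIA+THz. In CIA+THz against CIA, 4 of 6 red cell markers were lower and 2 higher, with 0 past the criterion. Against Ctrl, 6 of 6 were lower in CIA+THz (4 past it) and 5 of 6 in CIA (1 past it). No marker of these 6 lists was at 0 in any library. The 6 dendritic cell markers, of cells known for Itgax, summed to 7.15 to 8.36 FPKM in Ctrl, 10 to 10.9 in CIA and 8.02 to 9.76 in CIA+THz, with Zbtb46 at 0 in 3 libraries and Siglech in 2. Of the 5 that were tested, 1 was past the criterion in each direction in CIA against Ctrl. With FPKM as deposited the dendritic cell sums of CIA (9.46 to 10.6) and CIA+THz (9.95 to 10.7) overlapped. The 6 granule genes of immature neutrophils summed to 53.2 to 96.2 FPKM in Ctrl, 364 to 1220 in CIA and 151 to 248 in CIA+THz, with Mpo at 0 in 5 libraries and Elane in 2. Camp, Ltf and Ngp passed the criterion in each comparison, as higher in CIA and in CIA+THz than in Ctrl (6 of 6 genes higher in both) and as lower in CIA+THz than in CIA (5 of 6 lower, median log2 difference -1.14). The 7 NK cell markers, of cells that also carry beta2 integrins, summed to 152 to 199, 63 to 138 and 103 to 161 FPKM. In CIA against Ctrl, 6 of 7 were lower and 3 of them, Ncr1, Prf1 and Gzma, passed the criterion, and in CIA+THz against CIA 6 of 7 were higher (1 past the criterion, Prf1). The part of any of these lists in the levels of the integrin chains was not tested.

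**Figure D4:**
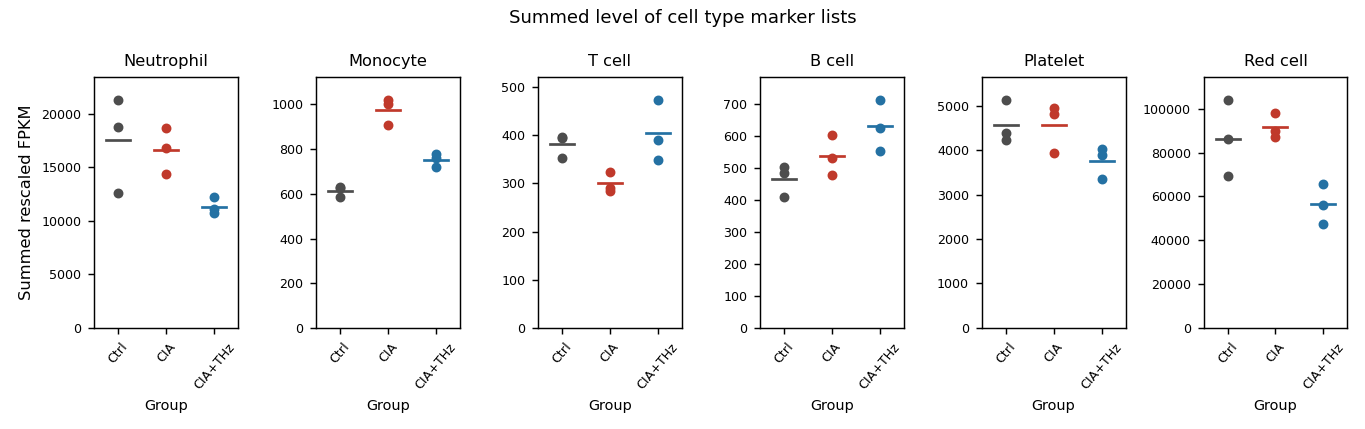
Summed rescaled FPKM of 6 lists of cell type markers, with 1 point per library and a line at the group mean. In rescaled FPKM the neutrophil and red cell sums are lowest in CIA+THz. The red cell sum is nearly all Alas2, and the neutrophil sum is mostly S100a9. The neutrophil sums overlap the other groups with FPKM as deposited. The monocyte sum is highest in CIA, though CIA and CIA+THz overlap with FPKM as deposited. The group mean of the B cell sum is lowest in Ctrl, but Ctrl and CIA overlap.

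Other genes of integrin function were taken from 6 lists of 77 genes, of which 66 were tested. Past the criterion were 1 higher and 2 lower genes in CIA against Ctrl, 0 higher and 2 lower in CIA+THz against CIA, and 1 higher and 2 lower in CIA+THz against Ctrl. The median log2 differences over the 66 genes were 0.12, -0.17 and -0.10, against -0.01, 0.03 and 0.04 over all genes, and 1 gene in CIA against Ctrl had an adjusted p under 0.05 by limma. Each count was a smaller share of the 66 genes than the share of all genes past the criterion. Leaving out CIA replicate 3 raised the first count from 3 to 7, leaving out CIA replicate 1 lowered the second from 2 to 1, and the third was 1 without Ctrl replicate 2 and 6 without Ctrl replicate 3.

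The gene with the adjusted p was Fn1, which encodes fibronectin, a ligand of alpha4beta1 and alphaV integrins. Fn1 was at 34.4, 27.4 and 43.0 FPKM in Ctrl, at 121, 97.3 and 111 in CIA, and at 58.7, 61.0 and 66.1 in CIA+THz, so that no groups overlapped. It rose in CIA by 1.67 on the log2 scale (SE 0.18, adjusted p = 0.0361 by limma). In CIA+THz it was lower than in CIA, at -0.82 (SE 0.11, adjusted p = 0.172), past the criterion, but at -0.55 and short of it with FPKM as deposited. Against Ctrl it was 0.85 higher (SE 0.17, adjusted p = 0.0977). Thbs1, the matrix protein thrombospondin of platelets, was at 108, 140 and 98.1 FPKM in Ctrl, 69.9, 69.6 and 77.1 in CIA, and 58.2, 71.9 and 76.1 in CIA+THz, and its log2 difference of -0.74 (SE 0.16, adjusted p = 0.119) between CIA+THz and Ctrl passed the criterion. That call was lost with FPKM as deposited (-0.43) and without Ctrl replicate 2 (-0.59) or CIA+THz replicate 1 (-0.62). Between CIA and Ctrl, Thbs1 differed by -0.66 (SE 0.15, adjusted p = 0.107 by limma). This was just short of the fold threshold, which it passed at -0.76 on the pan-leukocyte markers. Between CIA+THz and CIA the difference was -0.08 (SE 0.12).

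Ligands on cells were lower in level. Icam1, the ligand of LFA-1 and Mac-1, was at 18.3, 17.6 and 16.0 FPKM in Ctrl, 29.3, 26.2 and 24.4 in CIA, and 21.7, 15.9 and 24.3 in CIA+THz. In rescaled FPKM all CIA libraries stood above all others, though CIA+THz replicate 3 came close to the lowest of them. The log2 difference of CIA from Ctrl was 0.62 (SE 0.13, adjusted p = 0.0901 by limma). It was just short of the fold threshold, which it passed at 0.68 without CIA replicate 3. CIA+THz differed from CIA by -0.39 (SE 0.17, adjusted p = 0.402 by limma), or by -0.11 with FPKM as deposited. Vcam1, the ligand of alpha4beta1, was between 0 and 0.648 FPKM, and Madcam1, the ligand of alpha4beta7, was listed at 0 in every library. Cdh1, which encodes E-cadherin, the ligand of alphaEbeta7, was at 3.23, 2.14 and 3.07 FPKM in Ctrl, 1.59, 1.79 and 1.28 in CIA, and 4.11, 2.02 and 2.25 in CIA+THz. Its log2 difference of -0.81 (SE 0.31, adjusted p = 0.243) between CIA and Ctrl passed the criterion, and the call was lost without Ctrl replicate 1 (-0.70), Ctrl replicate 3 (-0.74), CIA replicate 1 (-0.83) or CIA replicate 3 (-0.68), and also with FPKM as deposited (-0.78), the replicate block (-0.81) or a pseudocount of 1 (-0.57). Between CIA+THz and CIA, Cdh1 differed by 0.75 (SE 0.33, adjusted p = 0.398 by limma), short of the criterion. It passed there with FPKM as deposited (1.02), pan-leukocyte scaling (0.82), all 9 libraries in the fit (0.75) or without CIA+THz replicate 2 (0.94). Without CIA+THz replicate 1 the difference was 0.44.

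**Figure D5:**
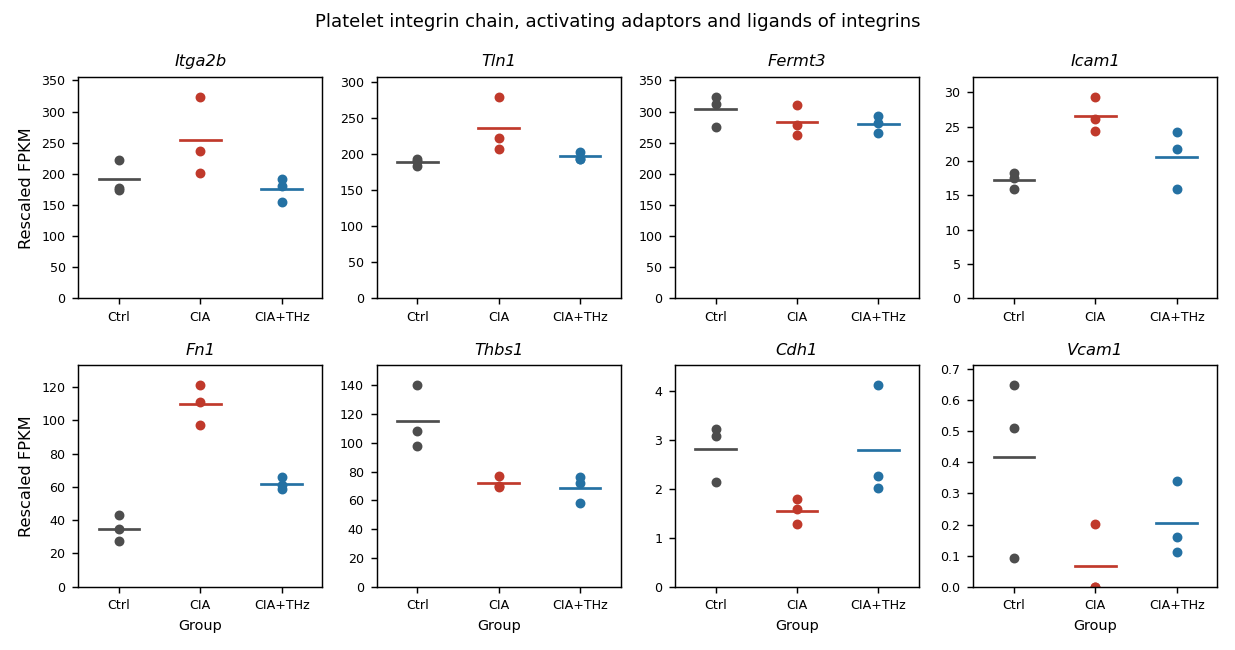
Rescaled FPKM of the platelet chain Itga2b, the activating adaptors Tln1 and Fermt3, and 5 ligand genes, with 1 point per library and a line at the group mean. Fn1 separates the 3 groups, and Fermt3 is at like levels in all groups. The group mean of Icam1 is highest in CIA, with CIA+THz replicate 3 close to the CIA libraries.

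Inside the cell, talin (Tln1) and kindlin-3 (Fermt3) bind beta chain tails and switch integrins on. Tln1 was at 184, 194 and 191 FPKM in Ctrl, 223, 279 and 207 in CIA, and 194, 194 and 203 in CIA+THz. CIA stood above both other groups, by 0.31 (SE 0.14, adjusted p = 0.301 by limma) on the log2 scale from Ctrl, and CIA+THz was at -0.25 (SE 0.12, adjusted p = 0.438) from CIA, or 0.03 with FPKM as deposited. Fermt3 was between 262 and 323 FPKM, with groups that overlapped in each comparison. Of 18 adaptors tested 0 passed the criterion in any comparison, as did 0 of 7 integrin inhibitors, 0 of 11 downstream kinases and exchange factors, and 0 of 7 selectins and selectin ligands.

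Of the other integrin chains, 10 of 16 were tested. Itga2b, the alpha chain of the platelet fibrinogen receptor, was at 178, 223 and 174 FPKM in Ctrl, 236, 323 and 202 in CIA, and 155, 181 and 191 in CIA+THz, with log2 differences of 0.39 (SE 0.20, adjusted p = 0.355 by limma) and -0.51 (SE 0.18, adjusted p = 0.323) in the first and second comparison. In rescaled FPKM all CIA+THz libraries stood under all CIA libraries, but the log2 difference was -0.23 with FPKM as deposited. The remaining genes past the criterion had a mean under 1 FPKM and were named after their values were seen. They were Itga8, at -2.34 in CIA against Ctrl and -1.68 in CIA+THz against Ctrl, and the junction protein gene Jam3, at -1.38 in CIA+THz against CIA.

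For each member, the genes most like it over the 9 libraries were found by Pearson's r of log2 levels among 9738 other genes with a mean of at least 1 FPKM, as a description only, since libraries share group and scaling. Itga6 had the closest, Nptn (r = 0.987), Stom (0.982) and Zwint (0.976), and Itgb7 had Elp4 (0.978), Bag6 (0.970) and Abhd17a (0.967). Itga4 was most like Ccng1 (0.976), Mettl14 (0.962) and Amer1 (0.957). Itgb1 was most like Atp6v1g1, Ccnb2 and Slc2a3, each at 0.966. Among the beta2 family, Itgb2 was most like Cd14 (0.959), P2ry13 (0.956) and Cks2 (0.951), Itgax like Lfng (0.954), Elk1 (0.937) and Abr (0.932), Itgam like Lyst (0.937), Nek6 (0.919) and Tgfbr1 (0.919), and Itgal like Cers2 (0.926) and Spidr (0.910) among others. The low chains were most like Med7 (0.962), Brms1l (0.931) and Lmtk2 (0.927) for Itgav, and Uqcrq (0.960), Scrt1 (0.959) and Timm13 (0.897) for Itgae. No 2 members shared a gene among these 3.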

How the data were processed

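Total blood RNA was sequenced as read pairs by the authors, who deposited 1 FPKM per gene and library. The submitters' processing notes name bcl2fastq 2.0, HISAT2, StringTie, DESeq2 and mm10, and which tool made the FPKM, the annotation, strand and filters are not given in the sources used here. The scaling factors were medians over the 10312 genes above 0 in every library. Differences of log2(rescaled FPKM + 0.1), which understate changes of low genes, were tested with limma 3.58.1 (trend on the mean, R 4.3.3) over the 12366 genes with a mean of at least 0.1, all 10 members included, on the 6 libraries of a comparison, with Benjamini-Hochberg adjustment. The criterion (unadjusted p under 0.05, absolute log2 fold change above 0.67) is the study's. Ratios were compared by two-sided exact permutation tests. Of the values of 313 low genes, 9.9% lay within 0.05 of a whole multiple of the gene's lowest value, as 10% of evenly spread values would. Replicate numbers pair nothing in the labels, and deviations of equal numbers correlated between -0.052 and 0.031. The members and lists were chosen with earlier results of these data known. Besides the members, pathway genes past the criterion with a mean of at least 1, Tln1, Fermt3, Icam1, Vcam1, Itga2b, and the 3 genes most correlated with each member were named, of which 1 is not reported here. The alternatives, given in the closing section, were added after seeing the data for the pathway genes. The scripts were tested on simulated data.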

Additional observations from a re-analysis of the deposited data

How the results depend on the processing

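No member passed the criterion in any comparison under any alternative, except that Itgb7 passed in CIA+THz against Ctrl with FPKM as deposited (1 member), where 1192 genes passed in CIA+THz against CIA (1126 higher and 66 lower, against 363 and 198 with rescaled values) and 1716 in CIA+THz against Ctrl (1596 and 120, against 574 and 401). Scaling on the pan-leukocyte markers gave 389 higher and 791 lower genes in CIA against Ctrl, against 592 and 526, and 499 higher and 138 lower in CIA+THz against CIA. A pseudocount of 1 gave 283 genes in CIA+THz against CIA, against 561, and leaving out Ctrl replicate 3 gave 1487 in CIA+THz against Ctrl, against 975. Across the groups, 3 members became 4 with pan-leukocyte scaling (Itgb1 besides), 2 with upper-quartile scaling, 2 with no trend, 1 with FPKM as deposited and 0 with the adjusted p. The replicate block left 0 members called in each comparison and 2 across the groups, and it changed no direction of a member.

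With FPKM as deposited, log2 differences of CIA+THz against CIA turned to 0.13 for Itgal, 0.15 for Itgam, 0.10 for Itgax, 0.06 for Itgb2, 0.10 for Itgb1, 0.07 for Itga6, 0.27 for Fermt3, 0.20 for Thbs1 and 0.03 for Tln1. Those against Ctrl turned to 0.21 for Itgal, 0.03 for Itgam, 0.02 for Itgb2, 0.17 for Itgav, 0.24 for Cdh1, 0.19 for Fermt3 and 0.19 for Itga2b. Pan-leukocyte scaling turned Itgal to -0.06 (CIA against Ctrl), Itgax to -0.02 and Itgae to -0.02 (CIA+THz against Ctrl) and Fermt3 to 0.07 (CIA+THz against CIA), where upper-quartile scaling gave 0.02. Between deposited and rescaled FPKM, all genes of a library differ by the same factor, which moved these values. The library totals were not higher in CIA+THz. The summed deposited FPKM of its libraries lay under those of all CIA libraries and within the range of Ctrl. Why most genes were higher there was not tested. The pseudocount, filters, trend and joint fit of 9 libraries kept the direction of all 30 member differences.

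Among the pathway genes, the 3 calls in CIA against Ctrl became 5 with pan-leukocyte scaling and 5 with all 9 libraries in the fit, and 1 with a pseudocount of 1 and 1 with the adjusted p. The 2 calls in CIA+THz against CIA became 1 with the pseudocount, 1 with a mean of at least 1, 1 with the replicate block and 0 with the adjusted p. With FPKM as deposited 1 gene was called there as well. It was Cdh1, higher at 1.02, and the 2 lower genes, with Fn1 at -0.55, were no longer called. The 3 calls in CIA+THz against Ctrl became 5 with FPKM as deposited and 0 with the adjusted p. Leaving out each library gave 3 to 7, 1 to 3 and 1 to 6 calls in these comparisons.

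Leaving out each library turned 10 of 180 member differences. The log2 ranges were -0.47 to 0.05 for Itgav and -0.16 to 0.52 for Itgax in CIA against Ctrl, and, in CIA+THz against Ctrl, -0.06 to 0.08 for Itga4, -0.27 to 0.28 for Itgae, -0.32 to 0.19 for Itgav and -0.34 to 0.35 for Itgax. Cdh1 ranged from -0.36 to 0.13 there, and Fermt3 from -0.07 to 0.05 and Thbs1 from -0.16 to 0.04 in CIA+THz against CIA. Among ratios, in the order CIA against Ctrl, CIA+THz against CIA and CIA+THz against Ctrl, Itgax to Itgal ranged from -0.19 to 0.44, -0.14 to 0.06 and -0.22 to 0.41. Itga4 to Itgb2 ranged from -0.19 to 0.09 in the first, Itgam to Itgal from -0.07 to 0.09 in the second and Itgam to Itgb2 from -0.05 to 0.05 in the third. The depth behind the deposited values is unknown.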
